A study of Mus musculus with 8 samples.

Results

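Thyroid hormone acts on genes through 2 nuclear receptors, TRα and TRβ, which bind DNA mostly as a pair with a retinoid X receptor (RXR). Without hormone the pair holds a corepressor complex built around proteins such as NCoR1, and target genes are kept low. With hormone the receptor changes shape, releases the corepressor and binds p160 coactivators (NCOA1, NCOA2 and NCOA3), which bring in histone acetyltransferases. The 9 genes described here are the receptors Thra and Thrb, the partners Rxra, Rxrb and Rxrg, the corepressor Ncor1 and the coactivators Ncoa1, Ncoa2 and Ncoa3. They were taken by symbol, with earlier results of these data known and with no threshold on a measured value, from 55341 gene symbols in the count files, and all 9 were among the 17355 genes with enough counts to be tested.

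Nuclear RNA was measured in GABAergic neurons, the inhibitory neurons of the cortex, from juvenile mice, with 1 library per mouse. All mice carried a Cre/loxP reporter that put a fluorescent protein into the nuclei of these neurons, and all were hypothyroid because propylthiouracil (PTU), a blocker of hormone synthesis, had been given to their mothers during pregnancy. The PTU group held mice 9 to 12 (n = 4). The PTU+TH group held mice 13 to 16 (n = 4), which had also been injected with thyroid hormone (TH) into the peritoneum 24 h before the brain was taken. There was no group with normal thyroid function, so each comparison is between untreated and treated hypothyroid mice. The Cre driver, the strain, the exact age, the litter and the dose of hormone are not given in the sources used here. The comparison asks how the genes that carry the hormone signal stood a day after the hormone was given.

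Library totals lay between 21762810 and 29084071 counts, so each member had from 96 counts (Rxrg in mouse 15) to 12881 counts (Thrb in mouse 14) per library. The sorted nuclei carried the GABAergic markers Gad1, Gad2 and Slc32a1 at a summed 848 to 988 CPM (counts per 1000000 counts, after scaling) in PTU and 853 to 934 CPM in PTU+TH. Markers of excitatory neurons (5 genes) summed to 35.5 to 100.4 CPM in PTU and 43.1 to 115 CPM in PTU+TH, and those of endothelium (3 genes) to 14.1 to 119 CPM and 20.3 to 82.0 CPM, with the highest value in PTU mouse 10. Among the GABAergic classes, the SST markers (Sst and Calb1) summed to 365 to 501 CPM in PTU and 311 to 355 CPM in PTU+TH. Of this pair Calb1 separated the groups, at 173 to 228 and 107 to 135 CPM, and Sst overlapped, at 192 to 274 and 204 to 242 CPM. The VIP markers summed to 176 to 250 CPM and 158 to 181 CPM. Vip itself overlapped, at 104 to 172 and 102 to 118 CPM, while Htr3a (6.25 to 11.4 and 2.59 to 4.64 CPM) and Prox1 (64.9 to 69.4 and 47.8 to 61.0 CPM) were lower in every treated library. The PV markers (Pvalb, Syt2 and Tac1) summed to 52.9 to 81.0 CPM and 63.0 to 80.9 CPM, and among them Syt2 was higher in every treated library, at 5.97 to 10.9 and 15.6 to 21.5 CPM. The LAMP5 markers (3 genes) overlapped in their sum, at 129.7 to 266 CPM and 190.0 to 212 CPM, with 0 called. The part of these class markers in the results below was not tested, and in sorted bulk nuclei fewer cells of a class and less RNA per cell cannot be told apart. Y-linked genes had 0 counts in PTU+TH mice 15 and 16 and 7960 to 11548 counts, summed over 4 genes, in each of the other 6 libraries. The labels give no sex. Libraries without Y-linked counts were found only in the treated group, so sex and treatment cannot be fully told apart. Results are therefore also given for the 6 libraries with Y-linked counts. The hormone response was present in every treated library: Hr, a corepressor gene induced by TH in brain, had 24 to 61 counts in PTU and 518 to 765 counts in PTU+TH (log2 fold change 3.88, edgeR adjusted p = 6.59e-07).

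Among the 9 members, 2 rose after TH and 0 fell by edgeR's quasi-likelihood test (adjusted p under 0.05, over all genes). By that rule 2.12% of all tested genes were called, 1.49% higher and 0.634% lower. The genes that rose were Ncoa1 and Ncoa3, both coactivators. In 5 of 9 members the 4 libraries of a group lay wholly above the 4 of the other, higher in PTU+TH for Ncoa1 and Ncoa3 and lower for Thra, Rxra and Rxrg. The same held for 8.71% of all tested genes, 4.68% higher and 4.03% lower. At an unadjusted p under 0.05 there were 5 members, against 12.8% of all genes. The median log2 fold change was 0.035 over the members and -0.00663 over all genes, and the median absolute change was 0.262 against 0.151. These shares describe the members and were not tested as a set.

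**Figure D1:**
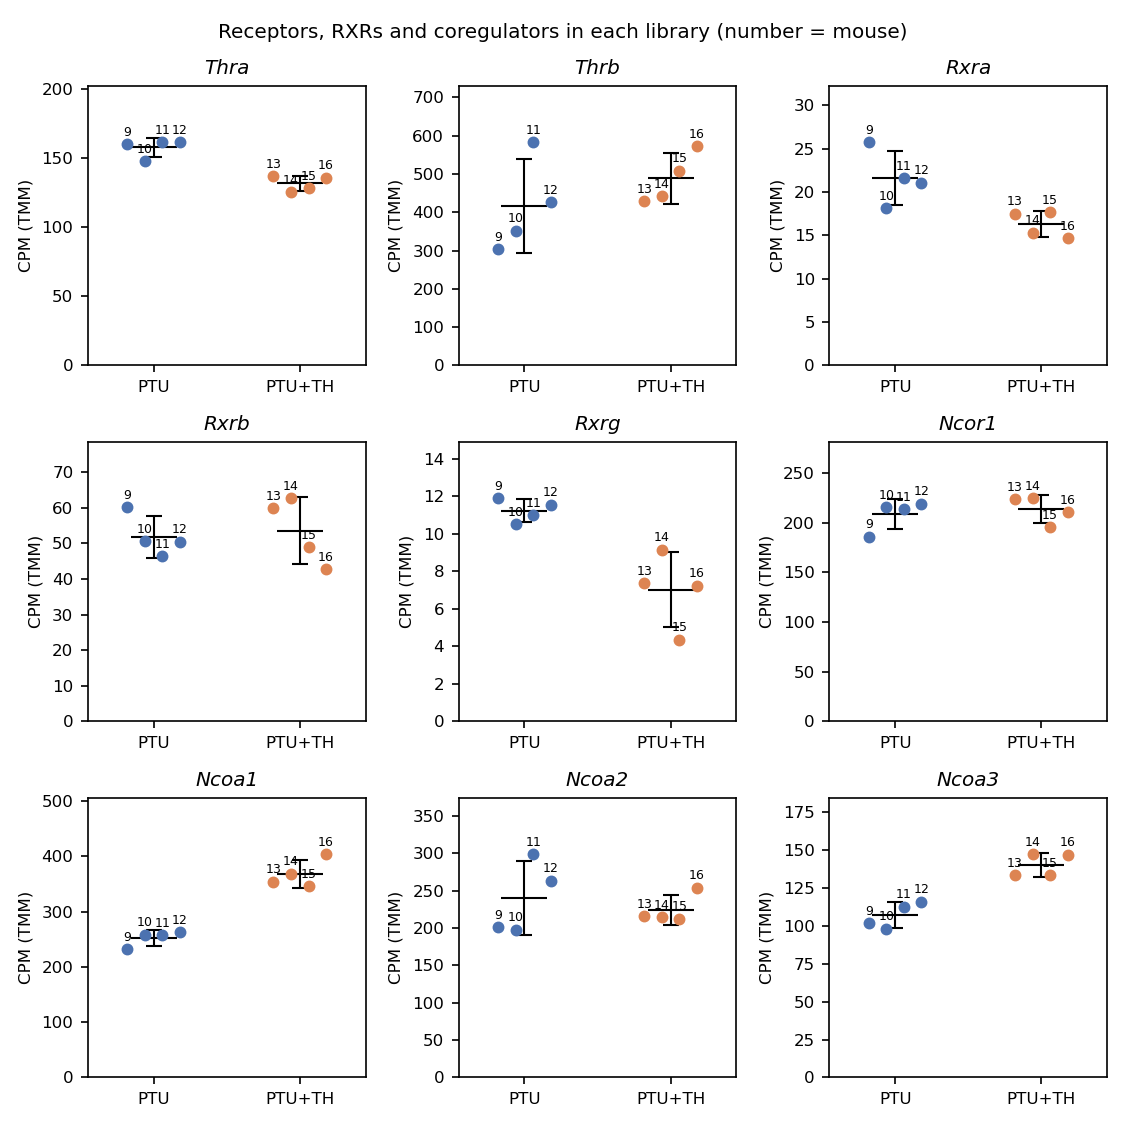
Abundance (CPM after TMM scaling, vertical axis from 0) of the 9 members in each library, with the mouse number beside each point and bars for the mean and SD of 4 libraries. Ncoa1 and Ncoa3 are higher in every PTU+TH library, Thra, Rxra and Rxrg are lower in every PTU+TH library, and the groups overlap for the other 4.

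Ncoa1 (SRC-1) is the p160 coactivator first described as a partner of hormone-bound steroid receptors, and it also binds thyroid hormone receptors. The gene lies at chr12:4247362-4477182 on the minus strand of GRCm38, and 99.7% of its body is shared with no other gene. It stood at 232, 258, 257 and 263 CPM in PTU mice 9 to 12. In PTU+TH mice 13 to 16 it stood at 354, 368, 347 and 404 CPM. The lowest treated library was thus well above the highest untreated library. The mean rose from 253 ± 14.3 to 369 ± 25.6 CPM (SD, n = 4 each), a rise of 45.9% (log2 fold change 0.55, 95% interval 0.32 to 0.77, edgeR adjusted p = 0.0139). Leaving out PTU+TH mouse 16 gave a log2 fold change of 0.50 and an edgeR adjusted p of 0.0547, and the other 7 fits that left out a library kept the call. Over the 6 mice with Y-linked counts the change was 0.52 on the log2 scale, at an adjusted p of 0.151 in edgeR.

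Ncoa3 (SRC-3) is a p160 coactivator known for its amplification in breast cancer. It lies at chr2:165992636-166073242 on the plus strand, with 99.8% of its body free of other genes. Its levels were 102, 98.1, 113 and 116 CPM in PTU mice 9 to 12 and 133, 147, 133 and 147 CPM in PTU+TH mice 13 to 16, without overlap. The mean rose from 107 ± 8.58 to 140.2 ± 7.97 CPM (SD, n = 4 each), or by 31.0% (log2 fold change 0.39, 95% interval 0.20 to 0.58, edgeR adjusted p = 0.0392). This call was less firm than that of Ncoa1. It held without PTU mouse 9 (edgeR adjusted p = 0.0435), but not without mouse 10 (0.122), 11 (0.0573), 12 (0.0578), 13 (0.0666), 14 (0.114), 15 (0.0808) or 16 (0.125). The size of the change moved little across these fits, with log2 fold changes from 0.35 to 0.43, and it was 0.39 over the 6 mice with Y-linked counts (edgeR adjusted p = 0.258).

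Ncoa2 (GRIP1, SRC-2), the remaining p160 gene, lies at chr1:13139105-13374083 on the minus strand and was not called. It stood at 201, 198, 299 and 263 CPM in PTU mice 9 to 12 and at 216, 215, 213 and 254 CPM in PTU+TH mice 13 to 16. The groups overlapped, and PTU mice 11 and 12 held the 2 highest values. The log2 fold change was -0.10, with a 95% interval of -0.40 to 0.20 (edgeR adjusted p = 0.867), and it was -0.16 over the 6 mice with Y-linked counts (edgeR adjusted p = 0.928).

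Ratios within a library do not depend on how libraries are scaled. Among the reads of the 3 p160 genes, Ncoa1 took 43.4%, 46.6%, 38.5% and 41.0% in PTU mice 9 to 12 and 50.4%, 50.4%, 50.0% and 50.2% in PTU+TH mice 13 to 16. The Ncoa1 share was nearly equal in the 4 treated libraries (50.3% ± 0.171, SD, n = 4) and spread more in the untreated ones (42.3% ± 3.47, SD, n = 4). Ncoa2 took 35.7% to 44.7% in PTU and 29.4% to 31.5% in PTU+TH, again without overlap. The share of Ncoa3 overlapped between the groups, at 16.8% to 19.0% and 18.2% to 20.2%. Since these shares combine the genes tested above, they are given as descriptions without a test.

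Ncor1 encodes the corepressor that unliganded thyroid hormone receptors hold together with the deacetylase HDAC3. It lies at chr11:62316426-62458541 on the minus strand, where 91.3% of its body is free of other genes, most of the shared part being with Ttc19 on the opposite strand. Its levels were 186, 216, 214 and 219 CPM in PTU mice 9 to 12 and 224, 225, 195 and 210.3 CPM in PTU+TH mice 13 to 16. The groups overlapped, with a log2 fold change of 0.03 (95% interval -0.17 to 0.24, edgeR adjusted p = 0.949), or 0.11 over the 6 mice with Y-linked counts (edgeR adjusted p = 0.922). The interval over all 8 libraries bounds the change in Ncor1 below the change estimated for Ncoa1. Each Ncor1 read was accompanied by 1.25, 1.20, 1.20 and 1.20 Ncoa1 reads in PTU mice 9 to 12, and by 1.58, 1.64, 1.77 and 1.92 in PTU+TH mice 13 to 16. The corresponding number of Ncoa3 reads was 0.454 to 0.547 in PTU and 0.595 to 0.698 in PTU+TH. The ratio of Ncoa2 to Ncor1 overlapped, at 0.916 to 1.40 in PTU and 0.955 to 1.21 in PTU+TH.

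**Figure D2:**
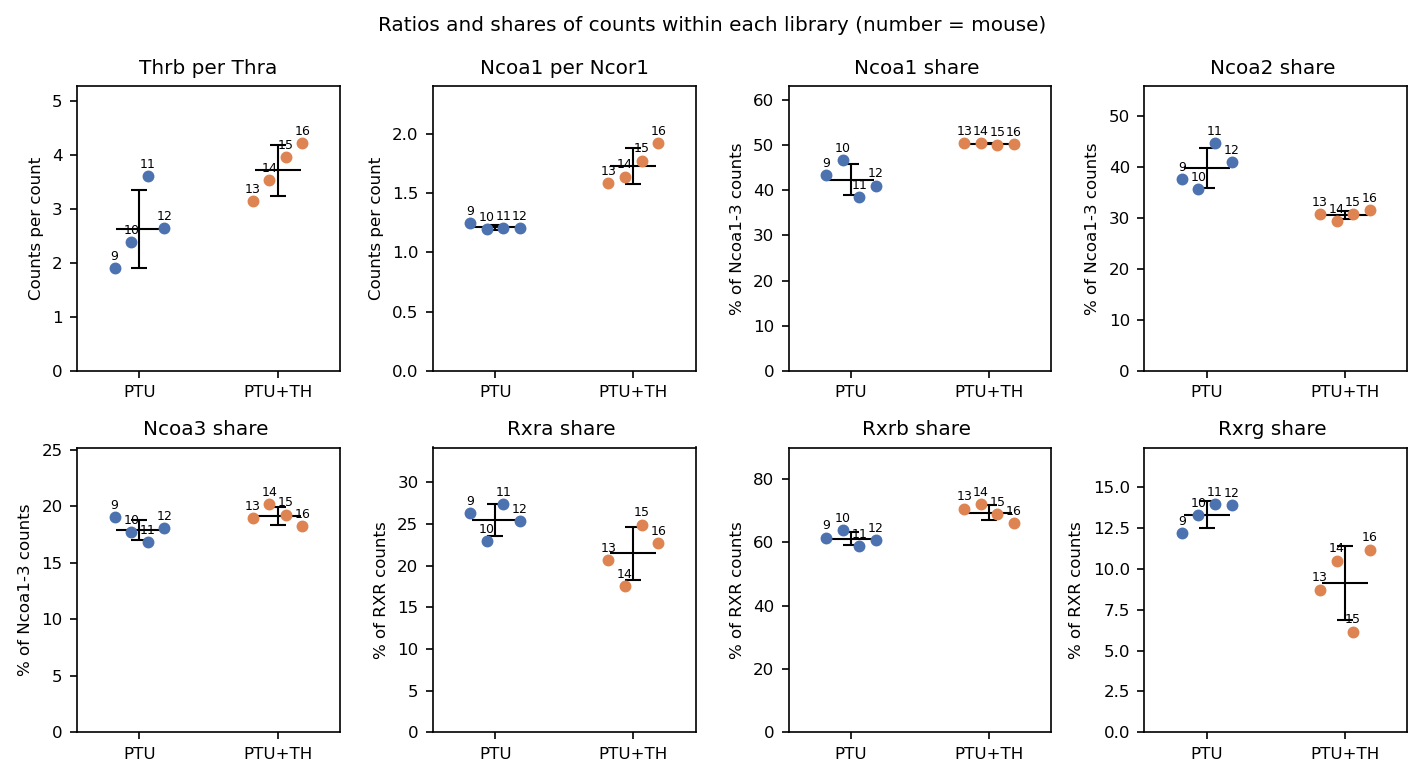
Ratios and shares of counts within each library, with the mouse number beside each point and bars for the mean and SD of 4 libraries. The Ncoa1 share of p160 reads is near 50% in all 4 PTU+TH libraries and below 47% in all 4 PTU libraries, and the number of Ncoa1 reads per Ncor1 read is above 1.5 only in PTU+TH.

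The receptor genes differ in their known use: TRα, from Thra, is the main form in most of the brain, and TRβ, from Thrb, is known for its roles in hearing, colour vision and the pituitary feedback on hormone synthesis. Thra lies at chr11:98740638-98769006 on the plus strand. Its 3′ end shares 1075 bases with Nr1d1, a circadian clock gene on the opposite strand, and 96.2% of its body is free. Thra stood at 160.2, 148, 162 and 161 CPM in PTU mice 9 to 12 and at 137, 125, 128 and 136 CPM in PTU+TH mice 13 to 16. All 4 treated libraries were below all 4 untreated ones. The means were 158 ± 6.72 and 132 ± 5.65 CPM (SD, n = 4 each), a log2 fold change of -0.26 (95% interval -0.44 to -0.09) that did not pass the adjustment over all genes (edgeR adjusted p = 0.147). DESeq2 gave the same log2 fold change with an adjusted p of 0.028, and in the 6 mice with Y-linked counts it was -0.27 (edgeR adjusted p = 0.499). The count file merges all transcripts of the gene, so the hormone-binding form and the splice form without hormone binding, whose last exon reaches into Nr1d1, are not separated. Nr1d1 itself stood at 11.4 ± 2.90 and 12.1 ± 1.25 CPM (SD, n = 4 each; edgeR adjusted p = 0.928).

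Thrb lies at chr14:17660261-18038090 on the plus strand and spans 377830 bases, of which 24.0% are shared with Gm48321, an antisense gene wholly inside it. Gm48321 was listed at 0 in all 8 libraries. This 0 does not show that Gm48321 was silent, because reads in the shared bases may have been given to neither gene. Thrb had the most reads of the 9 members. It stood at 304, 352, 584 and 427 CPM in PTU mice 9 to 12 and at 430, 443, 509 and 573 CPM in PTU+TH mice 13 to 16. PTU mouse 11 held the highest value of all libraries, and the other 3 PTU libraries lay below every treated library. The log2 fold change was 0.23 with a wide 95% interval of -0.17 to 0.63 (edgeR adjusted p = 0.703). Leaving out a library gave log2 fold changes from 0.11 without PTU mouse 9 (edgeR adjusted p = 0.799) to 0.44 without PTU mouse 11 (0.227), with 0.14 without PTU+TH mouse 16 (0.907), and it was 0.07 over the 6 mice with Y-linked counts (edgeR adjusted p = 0.985). With a surrogate variable, a covariate computed from the counts that set mice 9 and 10 apart from 11 and 12, it was 0.30 (edgeR adjusted p = 0.0456).

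The number of Thrb reads per Thra read was 1.90, 2.38, 3.61 and 2.65 in PTU mice 9 to 12 and 3.14, 3.54, 3.96 and 4.22 in PTU+TH mice 13 to 16. Mouse 11 lay within the range of the treated libraries, and the other 3 PTU libraries lay below it. The groups averaged 2.64 ± 0.721 and 3.72 ± 0.477 (SD, n = 4 each). Reads per gene rise with gene length, so this ratio shows how the balance varied among libraries and not which receptor was more abundant.

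RXRα, RXRβ and RXRγ are the shared partners of thyroid hormone, retinoic acid, vitamin D and fatty acid receptors, and RXRγ is the form with the most restricted expression, known from striatum, pituitary and muscle. Rxra lies at chr2:27676440-27762957, Rxrb at chr17:34031812-34038399 and Rxrg at chr1:167598384-167639623, all on the plus strand and all free of other genes. Rxra stood at 25.8, 18.2, 21.6 and 21.1 CPM in PTU mice 9 to 12 and at 17.5, 15.3, 17.7 and 14.7 CPM in PTU+TH mice 13 to 16. The groups did not overlap, but the lowest PTU library, mouse 10, was close to the highest treated library. The log2 fold change of -0.41 (95% interval -0.69 to -0.13) did not pass (edgeR adjusted p = 0.16). Restricted to the 6 mice with Y-linked counts it was -0.40 (edgeR adjusted p = 0.552).

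Rxrg was the member with the fewest reads. It stood at 11.9, 10.5, 11.0 and 11.5 CPM in PTU mice 9 to 12, a tight group, and at 7.38, 9.14, 4.36 and 7.23 CPM in PTU+TH mice 13 to 16. All treated libraries were lower, and mouse 15 was lowest, with 96 counts. The log2 fold change was -0.67 with a 95% interval of -1.10 to -0.25 (edgeR adjusted p = 0.119). DESeq2 gave -0.67 with an adjusted p of 0.0313. Over the 6 mice with Y-linked counts, which leaves out mice 15 and 16, it was -0.44 (edgeR adjusted p = 0.52). Markers of 2 cell types in which Rxrg is known to be expressed were summed for comparison. Those of striatal GABAergic neurons (5 genes) lay at 106 to 127 CPM in PTU and 86.3 to 112 CPM in PTU+TH, and those of oligodendrocytes (4 genes) at 88.0 to 103 CPM and 80.6 to 160.0 CPM, with 0 called genes in either list. Their part in the Rxrg values was not tested.

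Rxrb, the RXR with the most reads, stood at 60.3, 50.6, 46.4 and 50.5 CPM in PTU mice 9 to 12 and at 59.9, 62.8, 48.9 and 42.8 CPM in PTU+TH mice 13 to 16. Highest and lowest values were both found in the treated group. The log2 fold change was 0.05 (95% interval -0.23 to 0.32, edgeR adjusted p = 0.948), and over the 6 mice with Y-linked counts it was 0.24 (edgeR adjusted p = 0.649). Of the reads of the 3 RXR genes, Rxrb took 58.7% to 63.8% in PTU and 66.1% to 71.9% in PTU+TH, without overlap. Rxrg took 12.2% to 13.9% in PTU and 6.15% to 11.2% in PTU+TH, and the Rxra shares overlapped.

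**Figure D3:**
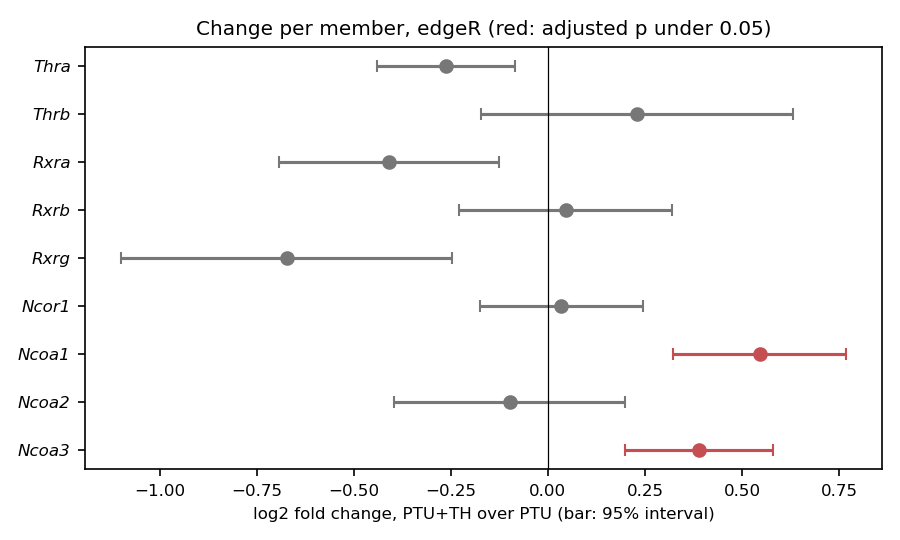
Log2 fold change of PTU+TH over PTU for each member (points) with the 95% interval from the edgeR fit (bars). Ncoa1 and Ncoa3, in red, pass an adjusted p of 0.05. The intervals of Thra, Rxra and Rxrg lie below 0 but these genes do not pass after adjustment over 17355 genes.

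Levels of different genes can be compared only per length, and 2 lengths are possible because nuclear RNA holds introns. Whether intron reads were counted is not given in the sources used here. All 680 protein-coding genes that lie wholly inside another gene without sharing an exon base were listed at 0 in all libraries, against 21.5% of 11727 genes that overlap no other gene. Counts over exons alone would not set every such nested gene to 0, whereas counts over whole gene bodies with shared bases dropped would. Per kilobase of free gene body, the order in PTU was Rxrb (7.88 ± 0.895 CPM per kb), Thra (5.78 ± 0.246), Ncor1 (1.61 ± 0.118), Thrb (1.46 ± 0.427), Ncoa3 (1.33 ± 0.107), Ncoa1 (1.10 ± 0.0622), Ncoa2 (1.09 ± 0.224), Rxrg (0.272 ± 0.0151) and Rxra (0.250 ± 0.0363; SD, n = 4 each). On this scale Rxrb and Thra stood above all others in every library, Rxra and Rxrg below all others, and neighbours among Ncor1, Thrb and Ncoa3, Ncoa1 and Ncoa2, and Rxrg and Rxra overlapped. In PTU+TH, Ncoa1 at 1.61 ± 0.112 CPM per kb of free body overlapped with Ncor1 at 1.65 ± 0.107 (SD, n = 4 each), while in PTU all 4 Ncoa1 values were below all 4 Ncor1 values.

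Per kilobase of free exon the order changed at the top. Thrb led in PTU with 70.3 ± 20.6 CPM per kb, followed by Thra with 41.9 ± 1.78 and Ncoa1 with 30.6 ± 1.73 (SD, n = 4 each). In PTU+TH, Thrb stood at 82.4 ± 11.1, Ncoa1 at 44.6 ± 3.10 and Thra at 34.9 ± 1.50 CPM per kb of free exon, with no overlap between neighbours. Rxrb was 7th on this scale in both groups. Rxra and Rxrg were the lowest members on both scales and in both groups, and their libraries overlapped. Thra stood above Thrb per kilobase of free body, and Thrb stood above Thra per kilobase of free exon. The exon scale gives levels only if intron reads were not counted. If they were, it overstates genes with long introns such as Thrb.

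Start-site sequence was looked up in RefSeq's GRCm38.p6 promoters, which held 11 start sites for 6 of the 9 members. The half-site AGGTCA, the core letters bound by thyroid hormone receptors and RXRs, was searched on both strands in the 250 bases before each start. It was found in 3 of 11 member windows, at Thrb, Rxra and Rxrg, and in 14.0% of all 32851 windows. The direct repeat of this half-site with any 4 bases between the copies, known as DR4, was in 0 of the member windows and in 0.0152% of all windows. The sequences below are the 3 windows with a match and that of Ncoa1, the called member with an entry, each 5′ to 3′ on the strand of the gene, with capitals for AGGTCA or its reverse complement TGACCT. A match here describes letters and is not a measured binding site.
Ncoa1, chr12:4477183-4477432, minus strand: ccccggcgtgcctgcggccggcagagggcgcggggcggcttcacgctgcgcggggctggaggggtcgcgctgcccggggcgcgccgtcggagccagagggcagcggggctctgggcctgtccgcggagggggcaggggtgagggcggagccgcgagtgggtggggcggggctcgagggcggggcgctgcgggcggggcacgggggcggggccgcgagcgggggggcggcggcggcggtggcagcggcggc
Thrb, chr14:17660710-17660891, plus strand, ended where an annotated exon begins: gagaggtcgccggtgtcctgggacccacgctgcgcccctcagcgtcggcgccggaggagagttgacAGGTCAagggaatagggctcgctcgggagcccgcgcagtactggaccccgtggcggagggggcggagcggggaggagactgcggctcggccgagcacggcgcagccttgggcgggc
Rxra, chr2:27709042-27709291, plus strand: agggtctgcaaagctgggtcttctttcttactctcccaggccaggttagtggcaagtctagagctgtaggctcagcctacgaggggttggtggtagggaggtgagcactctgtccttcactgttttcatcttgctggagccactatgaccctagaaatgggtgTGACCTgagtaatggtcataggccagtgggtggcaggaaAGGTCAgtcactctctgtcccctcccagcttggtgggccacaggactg
Rxrg, chr1:167618015-167618264, plus strand: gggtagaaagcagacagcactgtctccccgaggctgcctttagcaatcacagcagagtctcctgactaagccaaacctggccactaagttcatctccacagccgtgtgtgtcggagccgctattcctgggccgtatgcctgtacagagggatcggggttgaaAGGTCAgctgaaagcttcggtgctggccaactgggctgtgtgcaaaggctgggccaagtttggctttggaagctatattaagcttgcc

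The half-site began 184 bases before the start in Thrb and 88 bases before it in Rxrg. Rxra held a TGACCT that began 87 bases before its start and an AGGTCA that began 48 bases before it. These 3 starts lie inside the gene as GENCODE M21 annotates it, and the windows of the other start sites of Thrb, Rxra and Rxrg held no match. The Ncoa1 window was 85.6% G or C and held no match.

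Other genes of the pathway were taken from 4 lists of 37 genes, of which 34 were tested. Called higher were 2, Ppargc1a and Pparg, and 0 were called lower, with a median log2 fold change of -0.032 over the 34. Pparg encodes a fatty acid receptor that binds DNA with RXR and is best known from fat cells. It stood at 11.6, 17.5, 20.5 and 18.9 CPM in PTU mice 9 to 12 and at 45.3, 46.6, 42.7 and 49.0 CPM in PTU+TH mice 13 to 16. Each treated library held more than double the CPM of every untreated library. The log2 fold change was 1.43 (95% interval 1.10 to 1.75, edgeR adjusted p = 0.000236), and the call held under all 18 alternatives, with a highest adjusted p of 0.0187. The other 10 RXR partners, among them Rara, Rarb, Vdr and the LXR gene Nr1h2, ranged from a log2 fold change of -0.32 (Nr1h3) to 0.54 (Ppard) and were not called.

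Ppargc1a (PGC-1α), a coactivator of nuclear receptors known for driving mitochondrial genes, was the called gene among 10 coactivator enzymes and Mediator contacts. It stood at 105, 109, 148 and 123 CPM in PTU mice 9 to 12 and at 159, 166, 168 and 197 CPM in PTU+TH mice 13 to 16 (log2 fold change 0.51, edgeR adjusted p = 0.0407), and it was called under 10 of 18 alternatives. The acetyltransferases that p160 coactivators bring in were not called, with log2 fold changes of 0.04 for Crebbp and -0.03 for Ep300. Their 95% intervals ran from -0.17 to 0.24 and from -0.22 to 0.15.

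In the corepressor list 0 of 7 genes were called. Tbl1x, which encodes a subunit of the complex around NCoR1, had a log2 fold change of 0.18 at an adjusted p of 0.437 in edgeR. Of the 9 genes for hormone transport, deiodination and binding, 6 were tested and 0 called. The smallest p there was that of the transporter gene Slc16a10 (log2 fold change 0.20, adjusted p = 0.625 by edgeR). Slc7a5, which lies wholly inside another annotated gene, was listed at 0 in all libraries, and Dio1 and Dio3 had at most 4 counts in a library. Among 6 hormone response genes, Hr, Klf9 and Dbp were called, at 3.88, 1.37 and 1.09 on the log2 scale (adjusted p by edgeR, 6.59e-07, 0.00223 and 0.00639).

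**Figure D4:**
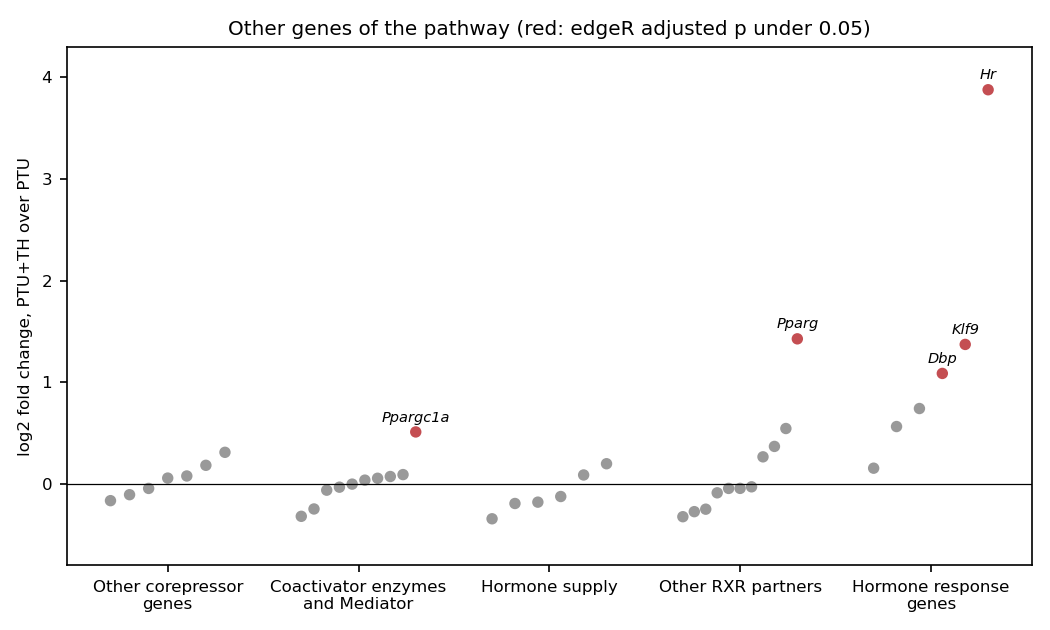
Log2 fold change of PTU+TH over PTU (vertical axis) for each tested gene of the 4 pathway lists and of the hormone response genes, with called genes in red and named. Pparg and Ppargc1a are the called genes of the 4 pathway lists, and Hr is the highest point.

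The genes whose pattern across the 8 libraries was nearest to a member were found by the root mean square difference of log2 CPM, centred on each gene's mean, among 9309 other genes of at least 10 CPM. For Thrb they were Camk1d (0.0576), Hivep2 (0.0644) and Rgs7 (0.0707), where the median over all candidates was 0.348. Their spread in PTU was wide like that of Thrb, at 315 ± 84.0, 241 ± 53.8 and 350.1 ± 80.7 CPM (SD, n = 4), which follows from how they were picked. For Thra they were Zfp710 (0.0444), Wdr35 (0.0511) and Rnps1 (0.0527), against a median of 0.208. For Rxrg they were Fchsd1 (0.173), Pfkl (0.199) and Zkscan16 (0.206), against a median of 0.447. Since all these genes were picked for their likeness to a member, their own changes are not given as results.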

How the data were processed

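Each library has a file with the number of reads per gene symbol, deposited by the authors as unscaled counts. The submitters' processing notes name Bowtie2 2.5.3 and the builds mm10 and GRCm38; the counting program, the use of strand and the treatment of introns are not given in the sources used here. The 55341 symbols are those of GENCODE M21, from which positions, overlaps and lengths were taken. From the deposited counts, genes were kept with filterByExpr, libraries scaled by TMM and groups compared with edgeR 4.0.16 (R 4.3.3; robust quasi-likelihood test, group as the only term, two-sided, Benjamini-Hochberg over 17355 genes, call at an adjusted p under 0.05). CPM are counts scaled to library size after TMM, computed here, given as mean ± SD over 4 libraries. The standard error behind each interval is the log2 fold change divided by the square root of F. Rxrg had the fewest counts per library (96 to 327). Titles gave the groups. The scripts were tested on simulated data.

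Alternatives were RLE, upper quartile and no scaling, DESeq2 1.42.0, limma voom 3.58.1, no filter and a filter of 10 CPM, a threshold of 0.1, a Y-linked covariate, a surrogate variable (sva 3.50.0), the 6 libraries with Y-linked counts, and leaving out each library. The members and lists were chosen with earlier results of these data known. Genes named are the 9 members, called list genes (or the smallest p where none was called), Nr1d1, and the 3 genes nearest to Thra, Thrb and Rxrg; further list genes are given as examples. Values of some list genes are not reported here.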

Additional observations from a re-analysis of the deposited data

Results flagged for a closer look

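A library far from its 3 group mates was looked for in 18 groups of 4 values (9 members, 2 treatments), of which chance marks about 5% or 0.9, and 3 were found by Dixon's test at 95%. The Thra value of PTU mouse 10, 148 CPM, lay below the 160.2 to 162 CPM of its group mates, a gap of 0.897 of the range. The Ncor1 value of PTU mouse 9, 186 CPM, lay below 214 to 219 CPM, a gap of 0.841. The Ncoa2 value of PTU+TH mouse 16, 254 CPM, lay above 213 to 216 CPM, a gap of 0.920.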

How the results depend on the processing

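No paired analysis was possible because the groups share no mouse number. Against 2 members called, 4 were called with DESeq2 (Thra and Rxrg lower, beside Ncoa1 and Ncoa3), 5 with a surrogate variable (Thra and Rxrg lower, Thrb higher), and 0 either with the Y-linked covariate or over only the 6 mice with Y-linked counts. Without a library the number lay between 0 (without PTU+TH mouse 16) and 2. Over all genes the count of 368 became 748 with DESeq2, 991 with a surrogate variable, 126 with Y-linked genes as covariate, 58 over those 6 mice and 601 at a threshold of 0.1, and lay between 182 (without PTU+TH mouse 15) and 499 (without PTU mouse 9) when a library was left out. It was also below the main count by over 1.5 times without mouse 12 (233), 13 (238), 14 (227) or 16 (209). A threshold of 0.1 can only add calls, by construction. For the other alternatives, the 6 libraries included, the cause was not tested.

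Thra, Thrb, Rxra, Rxrg, Ncoa1 and Ncoa3 kept their direction under every alternative run; Rxrg was not tested with the filter of 10 CPM. With the Y-linked covariate the edgeR adjusted p was 0.102 for Ncoa1 and 0.168 for Ncoa3. Directions changed only near 0 and in fits without a library, over which Rxrb ranged from -0.037 (without mouse 14; -0.0037 without mouse 11 and -0.0071 without mouse 13) to 0.14 on the log2 scale, Ncor1 from -0.012 (without mouse 9) to 0.076, and Ncoa2 from -0.18 to 0.025 (without mouse 11). With the Y-linked covariate Rxrb was 0.24 and Ncor1 0.11, each above its value over all 8 libraries by over 1.5 times, and Ncoa2 was -0.16. The largest shift of the all-gene median by another scaling was -0.0212. With 4 libraries a group, how often a change the size of that in Thra would pass the threshold was not tested.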
